A study of Mus musculus with 48 samples.

Results

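The RNA of mid anagen skin from 3 body domains of the mouse was compared: chin, ventral skin and dorsal skin. The members were chosen by their labels alone, as the libraries labelled mid anagen. They were 7 of the 48 libraries of the series and 7 of the 43 in its skin domain table, with 2 from chin, 2 from ventral skin and 3 from dorsal skin. The study sampled whole skin of C57BL/6 mice from these domains at 6 hair cycle stages to ask how hair growth differs among body regions. All 7 libraries were of untreated whole skin of strain C57BL/6 with the hair cycle stage mid anagen, and differed in the tissue location, given as chin, ventral or dorsum. Total RNA with an integrity number over 8 was copied into full-length cDNA by the SMART-seq2 protocol and tagmented, and such libraries do not mark the strand of a transcript. Age and sex of the mice were not given in the sources used here. Nothing in the labels says that libraries of a domain came from separate mice, so p-values rest on a spread between libraries that may be technical. That spread was pooled over the 43 skin libraries of all 6 stages, so it is not that of these 7 alone. It was taken to be the same for chin as for the other domains.

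Anagen is the growth phase of the hair follicle (HF). At its middle the follicle has reached down into the fat layer, matrix cells divide around the dermal papilla, and their progeny turn into the hair shaft and the inner root sheath that moulds it. The shaft is filled with hair keratins and then with keratin-associated proteins (KRTAPs), small proteins rich in cysteine or in glycine and tyrosine that cross-link the keratin filaments. Melanocytes of the bulb pass pigment into the shaft during anagen only. Around the follicles lie a collagenous dermis, sebaceous glands, vessels, immune cells, fat and, under the skin, a sheet of striated muscle.

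Values were FPKM, fragments scaled to transcript length and library depth, and differences are given as log2 differences of FPKM + 1 with their standard error (SE). Each comparison was tested with limma on 17142 genes with Benjamini-Hochberg adjustment. "Higher" and "lower" calls had an adjusted p under 0.05. Estimated depth was 9300000 and 6700000 fragments for chin, 13400000 and 10400000 for ventral skin, and 10400000, 9500000 and 13800000 for dorsal skin.

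The chin libraries stood apart from each other. Their root mean square log2 distance over the tested genes was 0.712, against 0.5 between the ventral libraries and 0.47 to 0.48 among the dorsal ones, and libraries of different domains lay 0.655 to 0.837 apart. Chin replicate 2 had more RNA of mitochondrially encoded genes and epidermal keratins and less of muscle, cell cycle and pigment genes than chin replicate 1. In estimated fragments of single-transcript genes, dorsal replicates 1 and 2 had a chi-square per degree of freedom of 8.96. Against replicate 3 they had 26.75 and 29.13, while the ventral pair reached 30.09 and the chin pair 79.16. This chi-square covers only part of the genes and grows with depth, which was largest in dorsal replicate 3. By log2 distance no dorsal pair was nearer than the others, at 0.476 for replicates 1 and 2, 0.47 for 1 and 3 and 0.48 for 2 and 3. Of 98 differences from chin followed for named genes, 3 lost their call, 9 gained one and 1 turned its sign without chin replicate 1, while 10 lost and 3 gained a call without chin replicate 2. Of 108 median differences of gene lists from chin, 62 moved by more than the spread between replicates without chin replicate 1 and 56 without chin replicate 2.

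The labelled tissue and stage were checked against markers. The keratinocyte gene Krt14 (1691 to 2515 FPKM), the hair cortex keratin Krt31 (1294 to 2070 FPKM), the inner root sheath keratin Krt71 (6271 to 12041 FPKM) and the matrix factor Msx2 (63.0 to 109 FPKM) were high in all 7 libraries. Krt14, Krt31, Msx2, the matrix factor Lef1, the matrix signal Shh and the proliferation marker Mki67 passed the test in none of the 3 comparisons. Skeletal muscle was also sampled in every library, with Acta1, the skeletal muscle actin, at 55.6 to 519 FPKM. Xist RNA lay between 3.80 and 15.9 FPKM and that of the Y-linked Ddx3y at 0, in all 7 libraries.

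Many genes differed among the domains at mid anagen. From chin to ventral skin 2269 genes were higher (13.2% of those tested) and 2585 lower (15.1%). From chin to dorsal skin 2248 were higher (13.1%) and 1565 lower (9.13%). From ventral to dorsal skin 3583 were higher (20.9%) and 2611 lower (15.2%). These comparisons share libraries pairwise, so their calls are not independent of each other. The split of calls moved with the scaling: on values rescaled to TPM, which gives each library the same total, 65.2%, 85.6% and 65.6% of calls were higher in ventral over chin, dorsal over chin and dorsal over ventral skin, against 46.7%, 59.0% and 57.8% on FPKM, and with median-of-ratios scaling dorsal skin had 46.2% and 47.9% of its calls higher against chin and ventral skin. The median difference of all genes was -0.01, 0.03 and 0.09 on FPKM, and 0.09, 0.19 and 0.15 on TPM. Fitted on the 7 libraries alone, without the spread of the other stages, the calls fell to 1045, 777 and 2691.

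A domain was taken to be set apart by a gene that was higher, or lower, than in each of the other domains. Ventral skin was set apart by 1358 genes that were higher (7.92%) and 1565 that were lower (9.13%). Dorsal skin was set apart by 1099 higher (6.41%) and 662 lower genes (3.86%), and chin by 642 higher (3.75%) and 612 lower genes (3.57%). In 1332 and 1509 of the ventral genes, 1056 and 614 of the dorsal genes, and 592 and 582 of the chin genes the libraries of the domain did not overlap with the other 4 or 5. Genes that passed both tests are prone to such a lack of overlap, so these counts are no further support. Its share among all tested genes was not counted. The chin total depended on its 2 libraries: 1254 genes set chin apart with both, 2052 without replicate 1 and 505 without replicate 2. The genes named per domain are the 6 in each direction with the largest differences among those without overlap. Where such a gene is said below to lie clear of the other domains, that was a condition of its choice.

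**Figure D1:**
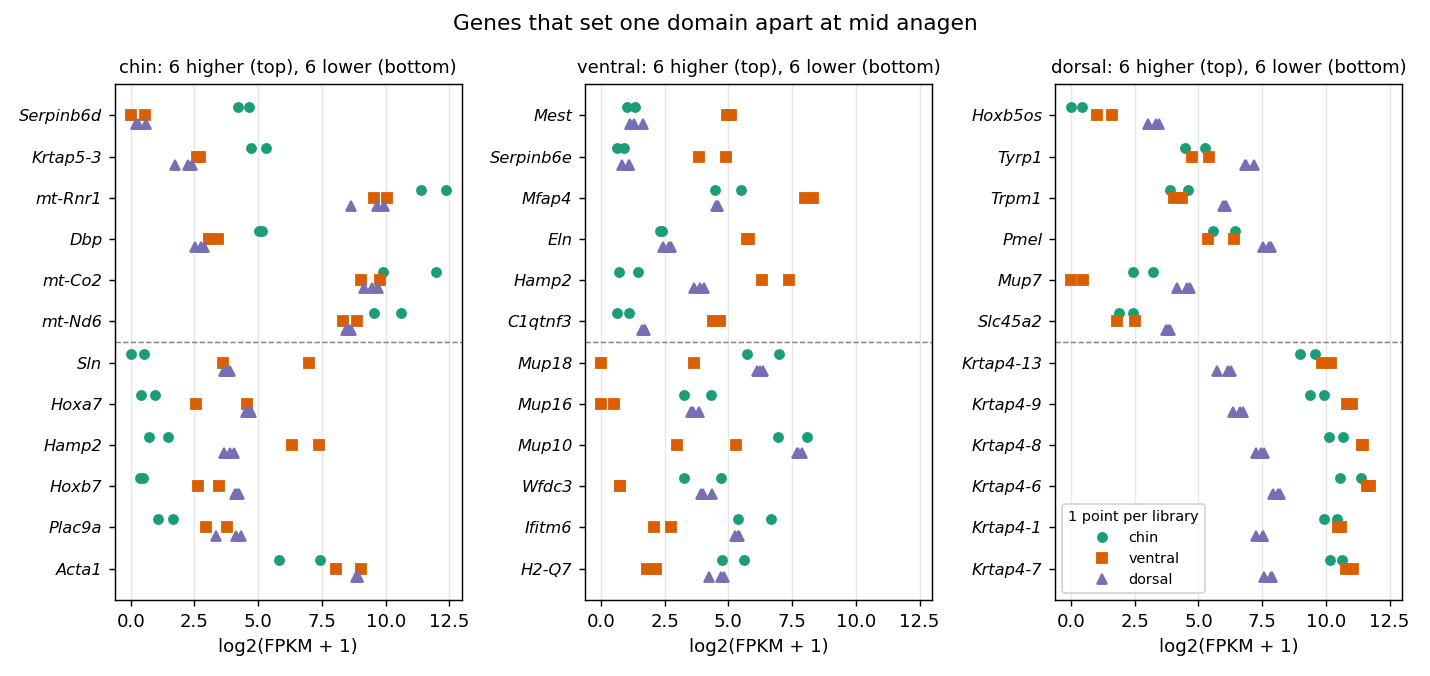
Levels of the 12 named genes that set each domain apart at mid anagen (left chin, middle ventral, right dorsal), as log2(FPKM + 1), with 1 point per library: green circles for the 2 chin, orange squares for the 2 ventral and purple triangles for the 3 dorsal libraries. Above the dashed line are 6 genes higher in the domain, below it 6 lower, and in each the domain's points lie outside those of the other domains, as the choice of these genes required.

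**Figure D2:**
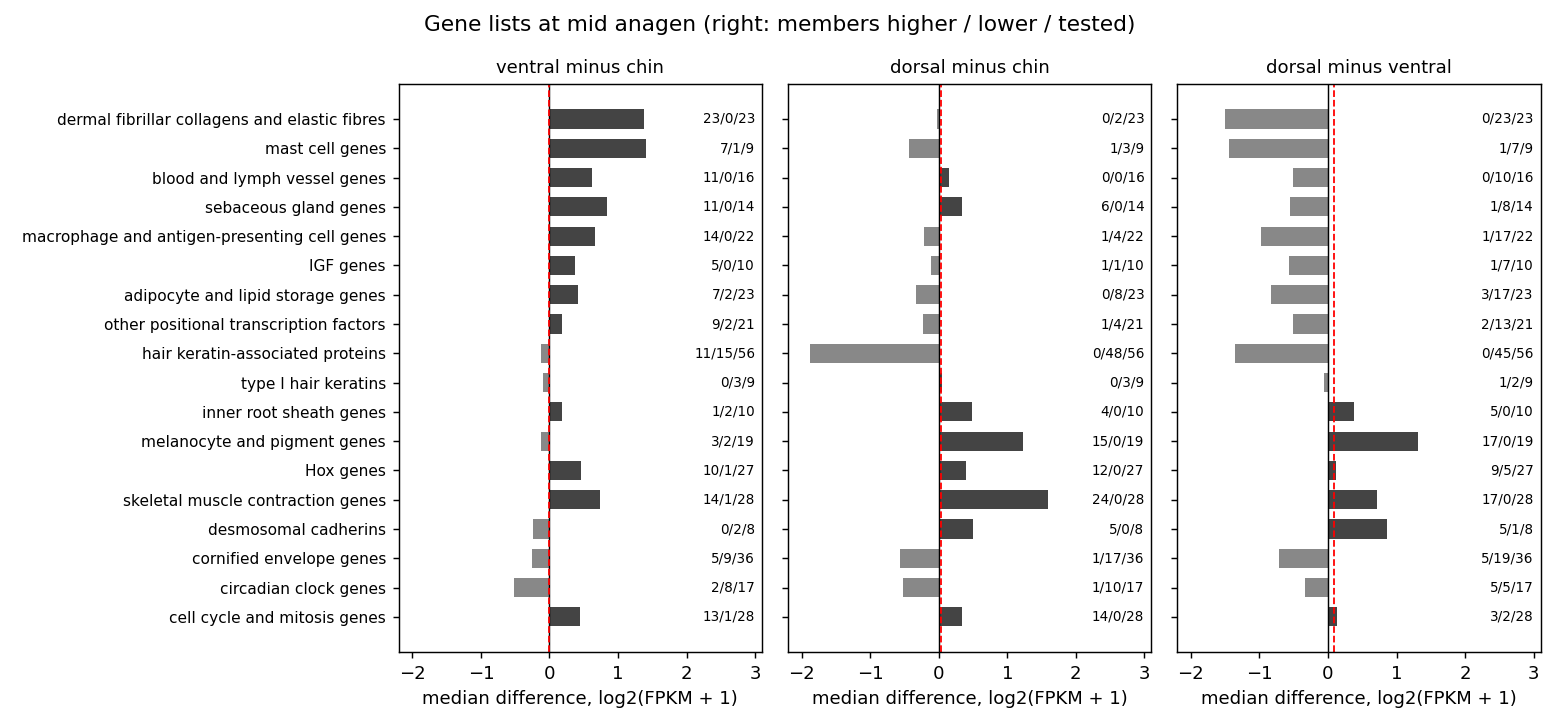
Median log2 difference of the members of 18 gene lists in the 3 comparisons at mid anagen (bars, on the log2(FPKM + 1) scale), with the median of all tested genes as a red dashed line and the numbers of members higher, lower and tested at the right. The collagen and elastic fibre bars point right (higher) in ventral over chin and left (lower) in dorsal over ventral skin. The bars of KRTAP genes point left in both comparisons of dorsal skin.

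The KRTAP genes gave dorsal skin its lowest genes. All 6 named genes that were lower in dorsal skin were KRTAP genes of family 4, which are cysteine-rich proteins of the hair cortex. To show the start sites of these genes, the 150 bases before the RefSeq start (GRCm38.p6) are printed 5′ to 3′ on the gene's own strand, with the TATA box letters TATAAA in capitals, followed by Krtap11-1, a KRTAP gene that did not differ by test. The windows are chr11:99809897-99810046 (minus strand) for Krtap4-13, chr11:99785050-99785199 (plus) for Krtap4-9, chr11:99665961-99666110 (minus) for Krtap4-6, chr11:99644090-99644239 (minus) for Krtap4-7 and chr16:89571184-89571333 (minus) for Krtap11-1.
Krtap4-13: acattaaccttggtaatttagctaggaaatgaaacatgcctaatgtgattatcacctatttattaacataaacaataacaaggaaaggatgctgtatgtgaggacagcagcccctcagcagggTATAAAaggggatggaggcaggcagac
Krtap4-9: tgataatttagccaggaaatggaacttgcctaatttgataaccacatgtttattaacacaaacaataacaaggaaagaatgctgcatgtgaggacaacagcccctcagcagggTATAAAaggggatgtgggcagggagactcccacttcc
Krtap4-6: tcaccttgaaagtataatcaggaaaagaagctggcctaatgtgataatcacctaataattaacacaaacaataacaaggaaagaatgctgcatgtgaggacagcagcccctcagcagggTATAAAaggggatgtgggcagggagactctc
Krtap4-7: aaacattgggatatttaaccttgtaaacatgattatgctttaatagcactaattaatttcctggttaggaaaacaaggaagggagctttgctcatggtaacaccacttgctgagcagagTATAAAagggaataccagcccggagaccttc
Krtap11-1: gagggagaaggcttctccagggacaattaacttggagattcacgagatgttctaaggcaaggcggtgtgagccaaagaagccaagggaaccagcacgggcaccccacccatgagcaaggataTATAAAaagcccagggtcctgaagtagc
TATAAA lay 27 bases before the start in Krtap4-13, 37 in Krtap4-9, 31 in Krtap4-6 and Krtap4-7 and 28 in Krtap11-1. Searched on both strands from 250 bases before to 50 after the start, TATAAA occurred in 41 of the 50 tested KRTAP genes with a RefSeq promoter (82.0%) and in all 8 of family 4, against 3827 of 27025 promoters (14.2%). The letters were thus shared by genes that differed among domains and by one that did not. GGGCGG, a GC box, occurred in 0 of the 50 and in 35.9% of all promoters.

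Krtap4-13 (ENSMUSG00000048294, chr11:99809078-99809892, minus strand, GRCm38) stood at 753 and 508 FPKM in chin, 1160 and 913 in ventral skin and 75.9, 70.6 and 52.7 in dorsal skin. The 3 dorsal libraries were far below the other 4, with differences of -3.22 ± 0.27 from chin (adjusted p = 6.37e-10, limma) and -3.95 ± 0.27 from ventral skin (3.6e-12). Krtap4-9 (ENSMUSG00000078262, chr11:99785200-99786258, plus strand) stood at 970 and 660 FPKM in chin, 2064 and 1813 in ventral skin and 106, 98.3 and 80.3 in dorsal skin. Its order was ventral, chin, dorsal without overlap, at 1.27 ± 0.23 from chin to ventral skin (adjusted p = 1.64e-04) and -3.07 ± 0.21 from chin to dorsal skin (1.32e-11). With chin replicate 1 or 2 left out, the dorsal difference was -2.79 or -3.35 for Krtap4-9 and -2.93 or -3.50 for Krtap4-13. Krtap4-8, Krtap4-6, Krtap4-1 and Krtap4-7 differed between dorsal skin and chin by -2.98, -2.89, -2.73 and -2.63. Family 4 genes are 71.3% to 95.5% identical to their closest tested relative, so fragments could be divided wrongly among them. Their sum avoids that division, and it was 11050 and 7380 FPKM in chin, 15530 and 15680 in ventral skin, and 1349, 1370 and 1137 in dorsal skin.

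Across the whole list of hair keratin-associated proteins, 56 of 57 members passed the filter on low values. In dorsal skin 48 of them were lower and 0 higher than in chin (median -1.87), and 45 lower and 0 higher than in ventral skin (median -1.36), against 9.13% and 15.2% of all genes lower. Chin and ventral skin were mixed, with 11 members higher in ventral skin, 15 lower and a median of -0.12 that turned positive on TPM, after quantile normalization and without chin replicate 1. These ventral counts were 17 higher and 9 lower without chin replicate 1, 3 and 8 without chin replicate 2, 7 lower without ventral replicate 1 and 5 higher without ventral replicate 2. When chin replicate 1 or 2 was left out, 43 or 46 members were lower in dorsal skin than in chin. The summed level was 165700 and 134500 FPKM in chin, 137200 and 138900 in ventral skin, and 59420, 58400 and 60100 in dorsal skin. In bulk skin, fewer cells of a type and less RNA per cell cannot be told apart, so these values do not say whether fewer cortex cells or less RNA in each gave the lower sum.

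The families of KRTAP genes were not lowered to one degree. Krtap19, the glycine- and tyrosine-rich family with the largest sum, fell from 42080 and 32100 FPKM in chin over 22850 and 24520 in ventral skin to 8654, 8254 and 8313 in dorsal skin, with 7 of 7 members lower in dorsal skin than in chin. Krtap6 summed to 10620 and 10020 FPKM in chin, 13060 and 14640 in ventral skin and 3282, 3374 and 3391 in dorsal skin. Krtap7 lay closer, at 17700 and 13960, then 17650 and 15890, then 11430, 11030 and 14130 FPKM. Krtap11-1 did not differ by test in any comparison, at 2245 and 1699 FPKM in chin, 1806 and 1741 in ventral skin and 2248, 2214 and 2196 in dorsal skin. The dorsal sums of family 4 lay far below those of both other domains, while family 11 in dorsal skin was at the level of chin replicate 1.

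**Figure D3:**
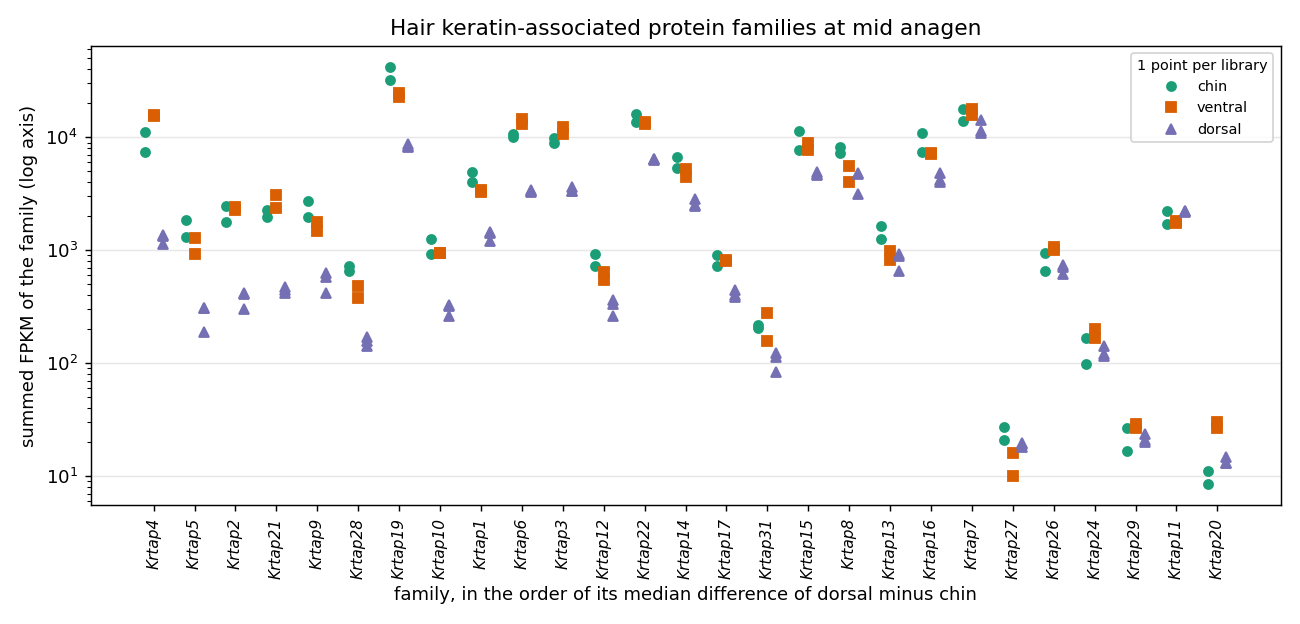
Summed FPKM (log axis) of 27 KRTAP families in each of the 7 mid anagen libraries, with 1 point per library in the colours and shapes of the domains, ordered by the median dorsal minus chin difference. The purple dorsal triangles lie below the other points in family 4 and overlap with them in height in family 11.

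Hair keratins themselves gave calls in 1 direction between chin and dorsal skin. Of 9 type I hair keratins, 0 were higher and 3 lower in dorsal skin than in chin (33.3%, against 9.13% of all genes), although their median was 0.06, and of 5 type II hair keratins 0 were higher and 2 lower (40%, median -0.35). Without chin replicate 1 the type I hair keratins had 1 lower, and without chin replicate 2 their median was -0.28. Krt31 stood at 2070 and 1294 FPKM in chin, 1692 and 1590 in ventral skin and 1725, 1736 and 1642 in dorsal skin. Krt34, a type I keratin of the cortex, was at 1005 and 998 FPKM in chin, 548 and 576 in ventral skin and 313, 310 and 350 in dorsal skin. The 3 domains did not overlap, at -0.83 ± 0.12 from chin to ventral skin (adjusted p = 1.26e-05) and -0.79 ± 0.11 from ventral to dorsal skin (3.4e-06). Krt86, a type II hair keratin, was at 1871 and 1204, 1639 and 1523, and 603, 641 and 527 FPKM, and was lower in dorsal skin by test. Of 10 inner root sheath genes, 4 were higher and 0 lower in dorsal skin than in chin (40% higher, against 13.1% of all genes). Krt71, a keratin of this sheath, was at 7532 and 6271 FPKM in chin, 8131 and 9450 in ventral skin and 12041, 11855 and 11907 in dorsal skin, with a dorsal difference of 0.80 from chin (adjusted p = 3.06e-05) and 0.45 from ventral skin (0.00565). Desmosomal cadherins, which join keratinocytes, gave 5 of 8 members higher and 0 lower in dorsal skin than in chin, and 1 of the desmosomal cadherins was higher without chin replicate 1. Among them Dsg4, a desmoglein of the hair shaft, stood at 5.99 and 4.70, 4.36 and 7.46, and 13.8, 15.4 and 13.2 FPKM. The desmosomal cadherins higher in dorsal skin than in chin were 62.5% of their list, against 13.1% of all genes.

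Pigment genes gave dorsal skin its highest genes. Of the 6 named genes higher in dorsal skin, 4 act in melanocytes: Tyrp1, an enzyme of melanin synthesis, Trpm1, an ion channel, Pmel, the fibril protein of the melanosome, and Slc45a2, a melanosomal transporter. Tyrp1 (ENSMUSG00000005994, chr4:80834123-80851719, plus strand) stood at 37.6 and 21.0 FPKM in chin, 25.5 and 41.8 in ventral skin and 111, 117 and 143 in dorsal skin. Chin and ventral libraries overlapped, and all 3 dorsal libraries were above them, at 2.09 ± 0.24 from chin (adjusted p = 3.75e-07) and 1.88 ± 0.24 from ventral skin (7.66e-07). Dct, a further melanin enzyme, stood at 76.4 and 53.7, 43.4 and 65.1, and 189, 188 and 223 FPKM. Tyr, the rate-limiting enzyme of melanin synthesis, was higher in dorsal skin by 1.57 and 1.70. With chin replicate 1 or 2 left out, the dorsal difference from chin was 2.49 or 1.68 for Tyrp1 and 1.87 or 1.37 for Dct.

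Of the 19 tested melanocyte and pigment genes, 15 were higher and 0 lower in dorsal skin than in chin (median 1.23), and 17 higher and 0 lower than in ventral skin (median 1.32), against 13.1% and 20.9% of all genes. Chin and ventral skin differed in 3 higher and 2 lower members. With 1 chin library each, 13 (without replicate 1) or 12 (without replicate 2) members were higher in dorsal skin than in chin. The mean log2 level of the list was 3.49 and 3.05 in chin, 3.05 and 3.46 in ventral skin, and 4.36, 4.33 and 4.36 in dorsal skin. Mup7, a gene of the urinary protein family, was named with the pigment genes, at 8.18 and 4.42, 0.37 and 0, and 24.6, 22.8 and 16.8 FPKM. Kitl, the ligand of the receptor Kit on melanocytes, was at 10.9 and 6.11 FPKM in chin, 7.05 and 8.18 in ventral skin and 22.3, 21.3 and 18.3 in dorsal skin, and was higher in dorsal skin by 1.23 and 1.33. The pigment genes moved up where the KRTAP genes moved down, and neither median against chin or ventral skin turned its sign under any alternative run. To show the start site of the leading pigment gene, the window chr4:80834063-80834212 (plus strand, GRCm38.p6, RefSeq) of Tyrp1 is printed with its E-box letters (CANNTG) in capitals, 46 bases before the start. Such letters occurred in 11 of the 13 pigment genes with a RefSeq promoter (84.6%) and in 72.1% of all promoters.
Tyrp1: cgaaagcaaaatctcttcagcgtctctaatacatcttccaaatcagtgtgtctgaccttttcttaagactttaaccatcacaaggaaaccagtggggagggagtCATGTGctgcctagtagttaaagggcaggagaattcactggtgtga

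Ventral skin was set apart by its dermal matrix. All 23 tested genes of dermal fibrillar collagens and elastic fibres were higher in ventral skin than in chin (median 1.39) and all 23 higher than in dorsal skin (median -1.50 for dorsal minus ventral), against 13.2% and 15.2% of all genes. Chin and dorsal skin differed in 0 higher and 2 lower members (median -0.02, of which the sign turned under some alternatives). Without chin replicate 1 or 2, 23 or 22 members were higher in ventral skin than in chin. The summed level was 1446 and 938 FPKM in chin, 4802 and 4800 in ventral skin and 1181, 1207 and 1259 in dorsal skin.

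Eln, which encodes elastin (ENSMUSG00000029675, chr5:134702593-134747323, minus strand), stood at 4.23 and 4.0 FPKM in chin, 55.0 and 52.5 in ventral skin and 5.77, 5.43 and 4.41 in dorsal skin. Both ventral libraries were far above the other 5, at 3.42 ± 0.17 from chin (adjusted p = 1.93e-14) and -3.15 ± 0.15 from ventral to dorsal skin (4.45e-15). Mfap4, a glycoprotein of elastic microfibrils, stood at 44.7 and 21.1, 253 and 318, and 22.2, 22.5 and 23.4 FPKM. Col1a1, the main chain of type I collagen, stood at 257 and 221 FPKM in chin, 1309 and 1426 in ventral skin and 284, 297 and 312 in dorsal skin, a difference of 2.52 ± 0.23 from chin (adjusted p = 3.87e-09). Col3a1, the chain of type III collagen, and Lox, which cross-links collagen and elastin, were higher in ventral skin than in chin by 2.43 and 2.34. Ventral and other libraries overlapped in none of these 5 genes, which for Eln and Mfap4 was a condition of being named. Mfap4 lies against Mapk7 on the other strand, and the libraries do not tell strands apart.

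Other named genes of ventral skin included growth and dermal factors. Mest, an imprinted gene of growing mesenchyme (ENSMUSG00000051855, chr6:30723547-30748465, plus strand), stood at 1.55 and 1.02 FPKM in chin, 33.4 and 30.2 in ventral skin and 1.48, 2.11 and 1.23 in dorsal skin. Its ventral libraries were clear of all others, at 3.85 ± 0.29 from chin (adjusted p = 1.72e-10) and -3.67 ± 0.27 from ventral to dorsal skin (2e-11). Serpinb6e, an intracellular serpin gene, stood at 0.85 and 0.56 FPKM in chin, 13.3 and 29.1 in ventral skin and 1.16, 0.79 and 1.16 in dorsal skin. C1qtnf3, a secreted protein of the C1q and TNF related family, stood at 1.17 and 0.55, 24.8 and 20.03, and 2.08, 2.27 and 2.29 FPKM. Further imprinted genes of growth control, chosen after their values were seen, were also highest in ventral skin. Igf2, a growth factor, was at 0.94 and 0.70, 6.24 and 21.0, and 1.2, 3.15 and 1.17 FPKM, and Cdkn1c, an inhibitor of the cell cycle, was at 19.2 and 6.99, 53.2 and 56.4, and 7.11, 6.70 and 6.97 FPKM. Hamp2, a gene of the hepcidin family, was graded, at 1.74 and 0.62 FPKM in chin, 79.6 and 168 in ventral skin and 15.4, 13.9 and 11.5 in dorsal skin. It set chin apart as lower and ventral skin as higher, at 5.79 ± 0.35 from chin to ventral skin (adjusted p = 1.58e-12) and 2.78 ± 0.32 from chin to dorsal skin (2.95e-07).

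Among the genes lowest in ventral skin were 3 major urinary protein genes, which encode pheromone carriers. Mup10 stood at 269 and 124 FPKM in chin, 38.2 and 6.84 in ventral skin and 213, 207 and 234 in dorsal skin, and Mup18 at 125 and 51.5, 11.6 and 0, and 68.1, 80.5 and 74.1 FPKM. Both ventral libraries were below the other 5, and ventral replicate 2 was listed at 0 for Mup18 and Mup16. Mup genes are 99.2% identical to their closest relative in the case of Mup18 and 99.1% in that of Mup10, so the values of single members are uncertain. Wfdc3, a protease inhibitor gene, was at 8.56 and 25.6, 0.67 and 0.69, and 14.9, 19.7 and 14.3 FPKM, at -3.25 ± 0.27 from chin to ventral skin (adjusted p = 7.31e-10). H2-Q7, a non-classical class I gene, was at 25.8 and 47.8, 3.42 and 2.52, and 25.4, 27.1 and 17.8 FPKM, and Ifitm6 was at 41.1 and 101, 5.74 and 3.24, and 37.2, 41.9 and 40.3 FPKM. Between chin and dorsal skin Wfdc3, H2-Q7, Mup10 and Mup18 did not pass the test, while Ifitm6 was lower in dorsal skin by -0.68 (adjusted p = 0.0344).

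Glands, vessels and immune cells of the dermis also had their highest RNA in ventral skin. From chin to ventral skin 78.6% of sebaceous gland genes and 68.8% of vessel genes were higher, against 13.2% of all genes. Of macrophage and antigen-presenting cell genes, 63.6% were higher. Of 14 sebaceous gland genes, 11 were higher and 0 lower in ventral skin than in chin (median 0.84; 7 higher without ventral replicate 2), and Awat2, a wax ester synthase of the gland, stood at 2.63 and 2.16 FPKM in chin, 19.7 and 35.7 in ventral skin and 3.65, 3.62 and 3.93 in dorsal skin. Scd3, a fatty acid desaturase of the gland, was at 3.03 and 2.30, 24.7 and 39.9, and 6.35, 5.56 and 5.88 FPKM. The summed level of the list was closer, at 1576 and 1222, 1778 and 1749, and 1621, 1650 and 1861 FPKM. Of 16 blood and lymph vessel genes, 11 were higher and 0 lower in ventral skin than in chin and 0 were called in either direction between chin and dorsal skin. Cldn5, a tight junction protein of endothelium, was at 9.61 and 8.27, 38.5 and 40.6, and 9.73, 9.02 and 9.25 FPKM. Pecam1, a defining marker of endothelium, passed the test in no comparison, at 5.53 and 10.9, 7.98 and 7.96, and 7.01, 6.81 and 7.09 FPKM.

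Mast cell genes were also highest in ventral skin. From chin to ventral skin 77.8% of those tested were higher, against 13.2% of all genes. From ventral to dorsal skin 77.8% were lower, against 15.2%. Of 9 tested mast cell genes, 7 were higher and 1 lower in ventral skin than in chin (median 1.41; 4 higher with either ventral library left out), and 1 was higher and 7 lower in dorsal than in ventral skin (median -1.44). Cma1, the mast cell chymase, stood at 15.3 and 5.96 FPKM in chin, 55.3 and 63.5 in ventral skin and 3.83, 3.61 and 4.28 in dorsal skin. The 3 domains did not overlap, at 2.50 ± 0.22 from chin to ventral skin (adjusted p = 2.05e-09) and -1.12 ± 0.20 from chin to dorsal skin (1.71e-04), and the second call was lost on the 7 libraries alone (0.0983). Tpsb2, a mast cell tryptase, was at 5.06 and 3.28, 32.4 and 36.2, and 2.43, 2.08 and 3.77 FPKM. The member that went the other way was Kit, which mast cells share with melanocytes, at 4.15 and 4.24, 2.38 and 2.74, and 5.94, 5.31 and 5.83 FPKM.

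Of 22 macrophage and antigen-presenting cell genes, 14 were higher and 0 lower in ventral skin than in chin (median 0.67), and 1 was higher and 17 lower in dorsal than in ventral skin (median -0.97). From ventral to dorsal skin 77.3% were thus lower, against 15.2% of all genes, and 4.55% higher, against 20.9%. Csf1r, the receptor for macrophage colony-stimulating factor, stood at 3.39 and 2.85, 6.76 and 7.34, and 2.30, 2.83 and 2.70 FPKM. The size of the chin difference held better than its calls: for the macrophage and antigen-presenting cell genes the median was 0.81 without chin replicate 1 and 0.54 without chin replicate 2, with 14 and 4 members called higher in ventral skin, and without ventral replicate 1 it was 0.65 with 7 called. Of 23 adipocyte and lipid storage genes, 7 were higher and 2 lower in ventral skin than in chin, and without chin replicate 1 or 2 this became 16 or 1 higher, and 4 without ventral replicate 1. From ventral to dorsal skin 3 of the adipocyte and lipid storage genes were higher and 17 lower (median -0.84), with 11 lower without ventral replicate 1. From chin to ventral skin 30.4% of this list were higher and 8.7% lower, against 13.2% and 15.1% of all genes. From ventral to dorsal skin 13% were higher and 73.9% lower, against 20.9% and 15.2%. Cidec, a protein of fat droplets, was at 40.9 and 17.1, 87.4 and 51.5, and 12.6, 17.1 and 14.0 FPKM, while Fabp4, the fatty acid binding protein of adipocytes and endothelium, went the other way at 1125 and 1091, 883 and 793, and 1282, 1361 and 1403 FPKM.

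Skeletal muscle RNA was lowest in chin and highest in dorsal skin. From chin to dorsal skin 85.7% of the skeletal muscle contraction genes were higher, against 13.1% of all genes. From ventral to dorsal skin 60.7% were higher, against 20.9%, and from chin to ventral skin 50%, against 13.2%. Of 28 skeletal muscle contraction genes, 24 were higher and 0 lower in dorsal skin than in chin (median 1.59), 17 higher and 0 lower in dorsal than in ventral skin (median 0.72), and 14 higher and 1 lower in ventral skin than in chin (median 0.73). Without chin replicate 1 or 2, the skeletal muscle contraction genes had 24 or 16 members higher in dorsal skin than in chin and 16 or 4 higher in ventral skin than in chin. Without ventral replicate 2, 7 were higher in ventral skin than in chin, and without ventral replicate 1, 5 were higher in dorsal than in ventral skin. On the 7 libraries alone 12 members were higher in dorsal skin and 1 in ventral skin than in chin. The summed level was 1068 and 534 FPKM in chin, 1243 and 2073 in ventral skin and 2425, 2445 and 2572 in dorsal skin. Acta1 stood at 170 and 55.6 FPKM in chin, 266 and 519 in ventral skin and 461, 480 and 481 in dorsal skin, which put ventral replicate 2 among the dorsal libraries. Tnnt3, a troponin of fast muscle, was at 59.9 and 29.0, 59.4 and 102, and 164, 167 and 198 FPKM, and was higher in dorsal skin than in chin by 2.04 ± 0.25 (adjusted p = 9.24e-07). Sln, a regulator of the muscle calcium pump, was listed at 0 and 0.44 FPKM in chin, 11.2 and 125 in ventral skin and 12.6, 11.5 and 13.9 in dorsal skin. How much muscle each sample held was not measured, and its part in the results was not tested.

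Hox genes encode transcription factors that record position along the body axis. Of 39 Hox genes, 27 passed the filter, and 12 of them were higher and 0 lower in dorsal skin than in chin (median 0.40), 10 higher and 1 lower in ventral skin than in chin (median 0.46), and 9 higher and 5 lower in dorsal than in ventral skin (median 0.12). As shares, 44.4% of the Hox genes were higher in dorsal skin than in chin and 37% in ventral skin than in chin, against 13.1% and 13.2% of all genes, while from ventral to dorsal skin 33.3% were higher and 18.5% lower, nearer to the 20.9% and 15.2% of all genes. The last counts became 5 higher without ventral replicate 1, and 2 lower without ventral replicate 2 or dorsal replicate 1. Hoxa6, Hoxb7, Hoxb8, Hoxa9, Hoxb9, Hoxc9, Hoxa10 and Hoxc10 were under 0.5 FPKM in both chin libraries and passed the filter through other domains. All of them were among the genes called higher in dorsal skin than in chin. Genes so low in chin could hardly be called lower elsewhere, so the shares against chin are no independent support. Members of paralogue groups 5 to 8 lay higher in dorsal skin, with 7 of 11 higher than in chin (median 1.04) and 6 of 11 higher than in ventral skin, and 0 lower. Of the 8 tested members of groups 9 to 13, 5 were higher in dorsal skin than in chin, and 1 was higher and 4 lower in dorsal than in ventral skin. The 8 tested members of groups 1 to 4 gave no call between chin and dorsal skin.

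Hoxa7 (ENSMUSG00000038236, chr6:52214491-52221854, minus strand) stood at 0.91 and 0.32 FPKM in chin, 4.92 and 22.9 in ventral skin and 23.8, 25.6 and 22.0 in dorsal skin. Chin was below all other libraries, at 2.90 ± 0.34 to ventral skin (adjusted p = 2.89e-07) and 3.96 ± 0.31 to dorsal skin (1.35e-10), and ventral replicate 2 lay among the dorsal libraries. Hoxb7 was at 0.30 and 0.40 FPKM in chin, 5.14 and 10.0 in ventral skin and 18.2, 16.8 and 16.2 in dorsal skin, so that the 3 domains did not overlap. Hoxb6 was at 0.89 and 0.78, 3.49 and 4.89, and 11.5, 9.41 and 10.5 FPKM, in the same order. The antisense gene Hoxb5os, the top named gene of dorsal skin, was listed at 0 and 0.36 FPKM in chin, 2.02 and 1.01 in ventral skin and 9.06, 9.87 and 7.08 in dorsal skin. It overlaps Hoxb5 and Hoxb6 on the other strand, and without strand its fragments and theirs cannot be told apart. The ventral libraries differed between themselves in posterior members, with Hoxa9 at 0.56 and 6.37 FPKM and Hoxa10 at 0.78 and 5.27 FPKM. Hoxc13, which acts in the hair shaft, was high everywhere, at 93.9 and 65.2, 108 and 92.0, and 62.1, 70.5 and 79.5 FPKM.

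**Figure D4:**
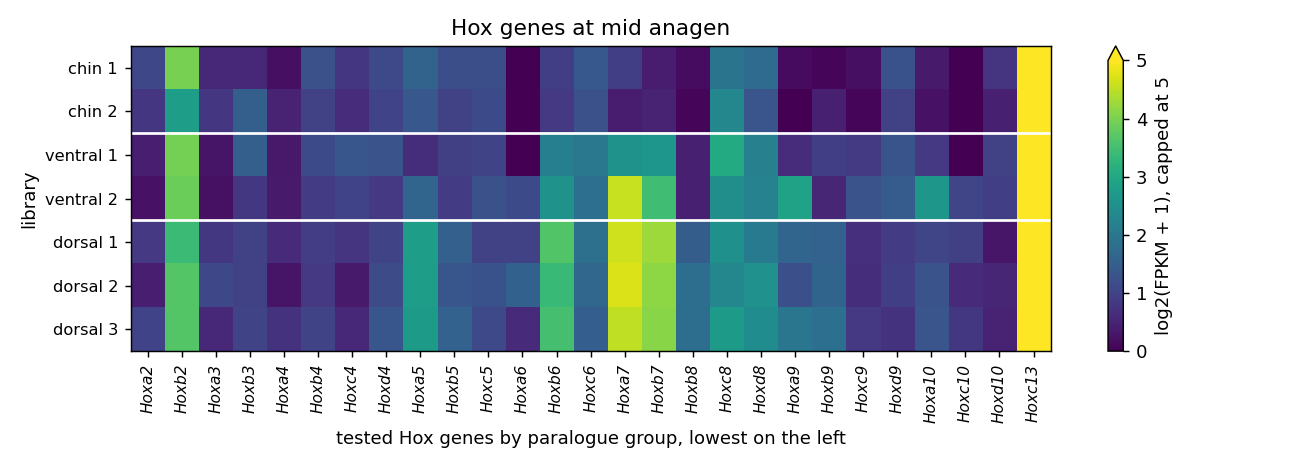
Heat map of the 27 tested Hox genes (columns, in order of paralogue group from left to right) in the 7 mid anagen libraries (rows). Colour gives log2(FPKM + 1), with values above 5 shown as 5. Hoxa7, Hoxb6 and Hoxb7 are below 1 FPKM in both chin rows, and Hoxb6 and Hoxb7 are brightest in the 3 dorsal rows. Hoxa7 is as bright in ventral replicate 2 as in dorsal skin, and Hoxc13 is at the cap in every row.

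Of 21 other positional transcription factors that passed the filter, 9 were higher (5 without chin replicate 2) and 2 lower in ventral skin than in chin, and 2 higher and 13 lower in dorsal than in ventral skin (median -0.51). As shares, 42.9% were higher and 9.52% lower in ventral skin than in chin, against 13.2% and 15.1% of all genes. From ventral to dorsal skin 9.52% were higher and 61.9% lower, against 20.9% and 15.2%. Tbx3, a T-box factor, stood at 2.02 and 1.14 FPKM in chin, 4.48 and 5.89 in ventral skin and 0.44, 0.38 and 0.51 in dorsal skin. Its 3 domains did not overlap, at 1.27 ± 0.19 from chin to ventral skin (adjusted p = 1.51e-05) and -2.09 ± 0.17 from ventral to dorsal skin (2.43e-10). Tbx15, a T-box factor that marks the boundary between dorsal and ventral coat, was at 2.53 and 1.74, 4.25 and 3.73, and 2.08, 1.90 and 1.11 FPKM, and was lower in dorsal than in ventral skin by -0.91 (adjusted p = 4.84e-04). En1 was not above 0.5 FPKM in any library and was not tested.

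Chin was set apart by a serpin, a KRTAP gene, a clock gene and mitochondrially encoded RNA. Serpinb6d, an intracellular serpin gene (ENSMUSG00000047889, chr13:33661405-33671581, plus strand), stood at 23.8 and 17.5 FPKM in chin, 0.47 and 0 in ventral skin and 0.52, 0.16 and 0.23 in dorsal skin. Both chin libraries were far above the other 5, at -4.05 ± 0.37 from chin to dorsal skin (adjusted p = 4.39e-09), and the difference was -3.84 and -4.26 without chin replicate 1 and 2. Krtap5-3, a cysteine-rich KRTAP gene, was at 38.2 and 25.5, 5.04 and 5.62, and 4.30, 3.75 and 2.36 FPKM. Plac9a, lower in chin, was at 2.15 and 1.07, 6.83 and 12.8, and 9.27, 19.2 and 16.6 FPKM, but it is 100% identical to Plac9b over 1040 bases, so its share of their fragments is uncertain. Mitochondrial RNA was highest in chin replicate 2: mt-Rnr1, a ribosomal RNA, was at 2672 and 5259 FPKM in chin, 1063 and 752 in ventral skin and 803, 990 and 399 in dorsal skin, and mt-Co2, a subunit of cytochrome oxidase, at 942 and 4028, 875 and 518, and 571, 833 and 704 FPKM. Without chin replicate 2 the mt-Co2 differences from chin were -0.48 for ventral and -0.44 for dorsal skin and lost their calls.

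Clock genes, which cycle with the time of day, differed among the domains. From chin to ventral skin 47.1% of those tested were lower, against 15.1% of all genes. From chin to dorsal skin 58.8% were lower, against 9.13%. Of 17 tested circadian clock genes, 2 were higher and 8 lower in ventral skin than in chin, and 1 higher and 10 lower (5 without chin replicate 2) in dorsal skin than in chin (both medians -0.52). Dbp, an output factor of the clock (ENSMUSG00000059824, chr7:45705088-45710203, plus strand), stood at 31.4 and 34.1 FPKM in chin, 7.45 and 9.63 in ventral skin and 4.79, 5.77 and 6.25 in dorsal skin. Chin was above all others, at -1.83 ± 0.20 to ventral skin (adjusted p = 1.01e-07) and -2.36 ± 0.18 to dorsal skin (1.31e-10). Per3 was at 22.9 and 17.3, 10.5 and 10.2, and 4.35, 3.94 and 5.11 FPKM, and Per1 at 5.92 and 12.6, 1.41 and 1.58, and 5.98, 5.41 and 6.03 FPKM. Arntl, which drives these genes, ran the other way between chin and ventral skin, at 4.24 and 3.85 against 7.39 and 6.40 FPKM (0.64, adjusted p = 6.24e-04). The hour at which the skin was taken is not given in the sources used here, so hour and domain cannot be told apart.

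Cornified envelope genes, which build the outer shell of dead keratinocytes, were lowest in dorsal skin. Against chin 47.2% of them were lower there and against ventral skin 52.8%, beside 9.13% and 15.2% of all genes. Of 36 cornified envelope genes, 1 was higher and 17 lower in dorsal skin than in chin (median -0.56), and 5 higher and 19 lower than in ventral skin (median -0.71). Without chin replicate 1 or 2 the cornified envelope genes gave 18 or 13 members lower in dorsal skin than in chin. Between chin and ventral skin the median was -0.25, and for the cornified envelope genes it turned to 0.14 without chin replicate 2. Lce1j, a late envelope protein gene, was at 19.7 and 48.2, 16.0 and 7.98, and 3.07, 2.14 and 2.20 FPKM, while Lce3c went another way, at 241 and 135, 41.0 and 51.6, and 176, 145 and 151 FPKM.

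Signalling lists of the follicle were called in both directions, and several leaned 1 way. Of 13 WNT ligands, which promote hair growth, 1 was higher and 5 lower (3 without chin replicate 1) in dorsal skin than in chin, and 1 higher (3 without chin replicate 1) and 0 lower in ventral skin than in chin. The lower members were 38.5% of the WNT ligands from chin to dorsal skin and 30.8% from ventral to dorsal skin, against 9.13% and 15.2% of all genes. Wnt6 was at 5.83 and 4.93, 6.22 and 6.15, and 2.78, 2.09 and 2.93 FPKM, while Wnt10b and Wnt5a passed the test in no comparison. Of 13 WNT antagonists, 5 were higher (3 without ventral replicate 2) and 1 lower in ventral skin than in chin, where 38.5% of the WNT antagonists compare with 13.2% of all genes higher. Sfrp4, a secreted antagonist, stood at 2.60 and 1.22 FPKM in chin, 15.2 and 15.9 in ventral skin and 10.2, 8.98 and 6.42 in dorsal skin, higher by 2.54 ± 0.28 in ventral skin (adjusted p = 1.23e-07) and by 1.73 ± 0.25 in dorsal skin (1.47e-05) than in chin. Dkk2, an antagonist that binds the WNT co-receptor, was at 1.82 and 1.57, 7.44 and 4.71, and 0.92, 0.88 and 1.21 FPKM. Axin2, a target gene of WNT signals, was lowest in ventral skin, at 2.74 and 2.64 FPKM against 4.51 and 6.43 in chin and 4.52, 4.65 and 4.30 in dorsal skin. Of 13 WNT target genes, 0 were higher and 3 lower in ventral skin than in chin. The lower ones were 23.1% of the list, not far above the 15.1% of all genes.

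BMPs restrain hair follicle stem cells. Of 9 BMP and GDF ligands, 3 were higher and 1 lower in ventral skin than in chin (median 0.22). In dorsal skin 1 was higher and 3 lower than in chin (median -0.12), and 0 higher and 3 lower than in ventral skin (median -0.26). Each count of 3 was 33.3% of the list, against 13.2%, 9.13% and 15.2% of all genes. Without chin replicate 1 the BMP and GDF ligands gave 1 lower from chin to dorsal skin and their median was 0.03, and without chin replicate 2 they gave 1 higher from chin to ventral skin. Bmp4 stood at 21.8 and 16.2 FPKM in chin, 27.9 and 27.5 in ventral skin and 27.1, 28.2 and 33.1 in dorsal skin. Bmp4 was higher than in chin by 0.54 in ventral skin (adjusted p = 0.00404) and by 0.62 in dorsal skin (6.73e-04), and both calls were lost without chin replicate 2 (0.33 and 0.41). Bmp2 went the other way, at 12.99 and 11.99 FPKM in chin, 11.75 and 11.4 in ventral skin and 9.07, 9.30 and 8.86 in dorsal skin, with a dorsal difference from chin of -0.42 (adjusted p = 0.00776), a call lost without chin replicate 1 (-0.37). Bmp3 was highest in ventral skin, at 4.73 and 4.19 FPKM against 2.12 and 1.32 in chin and 0.93, 0.83 and 1.14 in dorsal skin. Of 11 BMP antagonists, 0 were higher and 4 lower in dorsal than in ventral skin (36.4% lower, against 15.2% of all genes). Fgf5, the FGF that ends anagen, stood at 6.37 and 2.42, 11.1 and 10.9, and 5.85, 5.56 and 5.38 FPKM, higher in ventral skin than in chin by 1.26 ± 0.24 (adjusted p = 3.59e-04), a call lost without chin replicate 2 (0.70). Fgf7, a growth factor of the dermal papilla, passed the test in no comparison. Of 10 IGF genes, 5 were higher (3 without chin replicate 2 or ventral replicate 2) and 0 lower in ventral skin than in chin, and 1 higher and 7 lower in dorsal than in ventral skin (median -0.57). These were 50% of the IGF genes higher in ventral skin than in chin, against 13.2% of all genes, and 70% lower from ventral to dorsal skin, against 15.2%. Igf1, which prolongs anagen, was at 7.89 and 5.82, 10.4 and 9.87, and 5.34, 4.76 and 4.84 FPKM. From ventral to dorsal skin 38.5% of the Hedgehog genes were higher, against 20.9% of all genes. Of 13 Hedgehog genes, 5 were higher (2 with either ventral library left out, 3 without dorsal replicate 1) and 1 lower in dorsal than in ventral skin, among them Gli1, a target of the pathway, at 0.38 (adjusted p = 0.0192).

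The lists of putative activators and inhibitors of the hair cycle were picked by the study from array profiles of dorsal skin over the hair cycle that were published earlier, not from the libraries compared here. Of 227 tested putative activators, 48 were higher and 22 lower in ventral skin than in chin, 45 and 20 in dorsal skin than in chin, and 45 and 40 in dorsal than in ventral skin. Of 120 tested putative inhibitors, 14 were higher and 23 lower, 12 and 12, and 36 and 20 in the same comparisons. As shares, 21.1% of the activators were higher in ventral skin than in chin and 19.8% in dorsal skin than in chin, above 13.2% and 13.1% of all genes, and from ventral to dorsal skin 30% of the inhibitors were higher, against 20.9%. Single libraries moved these counts: without chin replicate 2, 15 and 14 putative activators were higher than in chin in ventral and dorsal skin, and without ventral replicate 1, 19 were higher in dorsal than in ventral skin. Of the putative inhibitors, 25 were higher in ventral skin than in chin without chin replicate 1 and 1 without chin replicate 2, and 23 were higher in dorsal than in ventral skin without ventral replicate 1. Of 28 cell cycle and mitosis genes, 14 were higher and 0 lower in dorsal skin than in chin, and of the cell cycle and mitosis genes 21 were higher without chin replicate 1, 5 without chin replicate 2 and 9 without dorsal replicate 3. The cell cycle and mitosis genes higher in dorsal skin than in chin were 50% of their list, against 13.1% of all genes. Of 16 dermal papilla markers, 1 was higher (6.25%) and 0 lower in dorsal skin than in chin. Of 14 hair follicle stem cell markers, 1 was higher (7.14%) and 2 lower (14.3%), against 13.1% and 9.13% of all genes.

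The differences of mid anagen were then set against the mean of the same differences over the other 5 stages, as a test of the difference between stages. One of the ventral catagen libraries in that mean, replicate 1, is titled ventral skin while its tissue location label names the rostral ear. Without it the genes that differed from the other stages numbered 3469, 2768 and 4199. In ventral over chin skin 3482 genes differed from the other stages (20.3%), in dorsal over chin skin 2809 (16.4%) and in dorsal over ventral skin 4251 (24.8%). The dermal fibrillar collagens and elastic fibres gave 23 of 23 members more ventral at mid anagen than at the other stages relative to chin (median 1.33), and 22 of 23 relative to dorsal skin. Of all 17142 genes, 1812 and 1689 were more ventral in these tests. The mean log2 level of the collagens and elastic fibres in ventral skin was 5.72 at mid anagen, 5.08 at early anagen and 4.27 at late anagen, and 6.31 at competent telogen. Eln was at 44.3 to 51.0 FPKM in early anagen and 8.69 to 9.36 FPKM in late anagen of ventral skin. Mest, at over 30 FPKM in ventral mid anagen, was at 1.95 to 2.66 FPKM in early anagen and 0.67 to 2.71 FPKM in late anagen of ventral skin.

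The KRTAP difference of dorsal skin was also larger at mid anagen than over the other stages, with 46 members lower and 0 higher relative to chin (median -1.65). Set against late anagen alone, 20 of the hair keratin-associated proteins were lower and 1 higher, beside 1663 and 864 of all genes. The mean log2 level of the KRTAP genes in dorsal skin was 3.28 at early, 8.22 at mid and 8.74 at late anagen, and in chin 7.46, 9.92 and 9.81. Dorsal skin and chin thus lay further apart at early than at mid anagen, which the mean over stages does not show. Krtap4-9 lay at 137 to 151 FPKM in dorsal late anagen and 1639 to 1938 FPKM in chin late anagen. Labels and hair keratins of other stages did not go together in every group: the KRTAP level of dorsal competent telogen, a resting stage, was 9.82, above that of dorsal mid anagen, so the mean over other stages mixes follicles of unlike states.

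The pigment difference was less particular to mid anagen. Relative to chin 11 melanocyte and pigment genes were more dorsal at mid anagen than over the other stages and 0 less (median 0.82), and against late anagen alone 0 of the melanocyte and pigment genes were more dorsal and 1 less. Of all 17142 genes, 1977 were more dorsal and 832 less over the other stages, and 864 and 1663 against late anagen alone. Tyrp1 stood at 78.4 to 89.7 FPKM in dorsal late anagen and 17.4 to 17.7 FPKM in chin late anagen. For the skeletal muscle contraction genes the direction turned with the stages used: 26 members were less dorsal relative to ventral skin over the other 5 stages (median -1.44) and 26 more dorsal against late anagen alone (median 1.76). Of all genes, 1689 were less dorsal over the other stages and 1912 more dorsal against late anagen alone. The mean log2 level of the muscle genes moved in chin from 4.03 at early to 3.38 at mid and 6.46 at late anagen, and in dorsal skin from 6.68 over 4.77 to 3.61. Dbp was at 4.24 and 5.10 FPKM in chin early anagen, 31.4 and 34.1 in mid and 30.8 and 32.9 in late anagen, and Serpinb6d at 152 and 27.0, 23.8 and 17.5, and 0.36 and 0.20 FPKM. Hoxa7 was at 0.45 and 0.98 FPKM in chin early anagen and 7.16 and 6.60 in late anagen, above chin mid anagen.

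**Figure D5:**
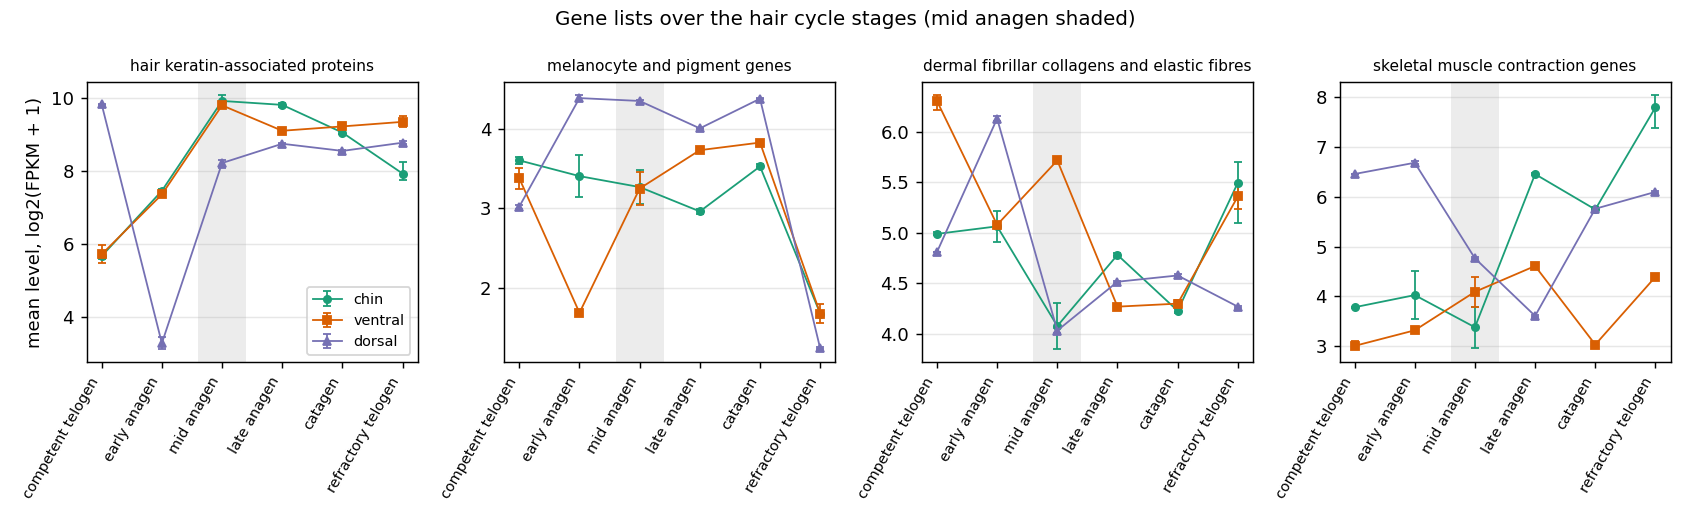
Mean log2(FPKM + 1) of 4 gene lists over the 6 hair cycle stages in chin, ventral and dorsal skin, with lines through the group means, bars from the lowest to the highest library and mid anagen shaded. At mid anagen dorsal skin is lowest for KRTAP genes (8.22) and highest for pigment genes (4.35), and ventral skin is highest for collagens and elastic fibres (5.72).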

How the data were processed

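RNA of 7 mid anagen skin libraries was analysed beside 36 skin libraries of the other 5 stages. From paired-end reads the authors made FPKM per gene with RSEM 1.2.25 (mm10, GENCODE vM8), state a batch correction without naming the batches, and deposited the FPKM of 46983 genes. No counts were used here, and the table of ear skin was not used.

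Groups came from the sample titles, and 43 libraries in 18 groups were fitted on log2(FPKM + 1) with limma 3.58.1 (R 4.3.3), moderated with a variance trend. The tests were two-sided and had 25 residual degrees of freedom. A gene was tested when 2 or more of the 7 libraries reached 0.5 FPKM, and calls had a Benjamini-Hochberg adjusted p under 0.05. The fit and the depth estimate were tested on simulated data. Depth was estimated from the steps of low FPKM values, of which 79.8% to 85.2% lay within 0.15 of whole fragments, and counting error covers only part of the error. Tables and figures were made with Python 3.11.15, numpy 2.4.6, pandas 2.3.3 and matplotlib 3.10.9. Gene positions came from GENCODE vM21 on GRCm38 and promoters from RefSeq on GRCm38.p6.

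Named genes were, per domain and direction, the 6 with the largest smaller difference from the other domains among genes without overlap and with a mean of at least 5 FPKM; per comparison and per test against other stages, the 4 largest in each direction; up to 4 members per gene list; and fixed signalling and marker genes. Genes named outside this rule were chosen after their values were seen. The domains, 54 gene lists and tests were chosen with earlier results of these data known. Alternatives changed the pseudocount, filter, scaling, variance model, libraries and stages used. Same-numbered libraries were not treated as pairs, since no source says that they share a mouse.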

Additional observations from a re-analysis of the deposited data

Results flagged for a closer look

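The difference between domains at mid anagen differed from its mean over the other 5 stages, by limma's interaction test, in 3482 genes for ventral over chin, 2809 for dorsal over chin and 4251 for dorsal over ventral skin. The 4 genes with the largest estimates in each direction are given as log2 values of this change in the difference.

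For ventral over chin skin the muscle genes Sln (5.37), Myl1 (4.32), Acta1 (4.2) and Smpx (3.94) were relatively more ventral at mid anagen than at the other stages. The urinary protein genes Mup18 (-4.21), Mup16 (-3.42) and Mup10 (-3.13) and the protease inhibitor gene Wfdc3 (-3.12) were relatively less ventral. Chin Acta1 was at 170 and 55.6 FPKM at mid anagen and at 1407 and 1307 FPKM at late anagen.

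For dorsal over chin skin Glipr1 (3.04), Plac9a (2.34), Hoxa7 (2.27) and the muscle enzyme gene Pgam2 (2.25) were relatively more dorsal. The glycine- and tyrosine-rich KRTAP genes Krtap19-9a (-3.19), Krtap19-2 (-3.14), Krtap19-1 (-3.02) and Krtap19-4 (-2.65) were relatively less dorsal. Krtap19-1 was at 1051, 1024 and 1096 FPKM in dorsal mid anagen, at 1598, 1623 and 1639 in dorsal late anagen, and at 1.01 and 0 in dorsal early anagen. Krtap19-9a is annotated as a processed pseudogene and its fragments may come from relatives.

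For dorsal over ventral skin Mup18 (4.29), Wfdc3 (3.72), Mup7 (3.61) and Mup10 (3.37) were relatively more dorsal. Sln (-4.00), the mast cell genes Cma1 (-3.59) and Cpa3 (-3.07) and Mest (-3.22) were relatively less dorsal. Wfdc3 was at 0.67 and 0.69 FPKM in ventral mid anagen, and at 73.2 to 79.0 FPKM in early and 12.7 to 16.6 FPKM in late anagen of ventral skin. Cma1 was at 55.3 and 63.5 FPKM in ventral mid anagen, 14.3 to 15.0 FPKM in early and 6.50 to 7.76 FPKM in late anagen.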

How the results depend on the processing

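With the 7 libraries alone, calls were 1045 for ventral over chin, 777 for dorsal over chin and 2691 for dorsal over ventral skin, and 155 genes set chin apart, 682 ventral and 387 dorsal skin; this fit has far fewer libraries for the spread. Rescaling to TPM gave 4923 genes for dorsal over chin against the other stages. Leaving out 1 library gave 2050 to 5850 calls for ventral over chin (2050 without chin replicate 2, 2675 without ventral replicate 2), 2797 to 3848 for dorsal over chin and 4111 to 6527 for dorsal over ventral skin (4111 without ventral replicate 2). It gave 505 to 2052 genes that set chin apart (505 without chin replicate 2, 2052 without chin replicate 1, 755 without ventral replicate 2), 1401 to 3409 for ventral skin (1401 without chin replicate 2, 1593 without ventral replicate 2) and 1196 to 1798 for dorsal skin. Against the other stages the ranges were 1444 to 4852 for ventral over chin (1444 without chin replicate 2, 1833 without ventral replicate 2), 2110 to 3119 for dorsal over chin and 2696 to 4636 for dorsal over ventral skin (2791 and 2696 without ventral replicates 1 and 2). The cause of these moves was not tested.

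The sign turned for Krt10 in ventral over chin without chin replicate 1 (-0.54) and, with late anagen as the only other stage (an alternative chosen after seeing the data), for Mup16 (0.36) and Mup10 (0.82) in ventral over chin and Sln (0.68) in dorsal over ventral skin. Of 147 mid anagen differences of named genes, 23 lost their call on the 7 libraries, and of 171 with those against the other stages, 11 did so without chin replicate 2 and 0 without ventral catagen replicate 1 (left out after seeing the data for its ear label). A fit with the replicate number as a block gave 4832, 3647 and 6006 calls, and none of the 171 changed its call. The deviations of same-numbered libraries from their group means had r from -0.089 to 0.036. In a group of 2 libraries these deviations mirror each other, so few of the values are independent. They cannot show whether same-numbered libraries share a mouse or a batch. With dorsal replicates 1 and 2 averaged, also chosen after seeing the data, calls were 4843, 3067 and 5415. Depth limits low genes: at 6700000 fragments, 1 fragment of chin replicate 2 is worth more FPKM than in the other libraries.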

Other observations

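Globins were lowest in dorsal skin. Of the red blood cell genes, 2 of 7 were higher and 4 lower (2 without chin replicate 1) than in chin, and 1 was higher and 4 lower than in ventral skin. From chin to dorsal skin 28.6% were higher and 57.1% lower, against 13.1% and 9.13% of all genes. From ventral to dorsal skin 14.3% were higher and 57.1% lower, against 20.9% and 15.2%. Hba-a2, an adult alpha globin, stood at 807 and 536 FPKM in chin, 812 and 1087 in ventral skin and 279, 277 and 232 in dorsal skin, and Hbb-bs, an adult beta globin, at 288 and 186, 312 and 420, and 121, 111 and 92.6 FPKM. Alas2, the heme synthesis enzyme of red cell precursors, passed the test in no comparison. Immediate early genes, which respond to stimuli within minutes, gave 1 higher and 7 lower of 19 in ventral skin than in chin (36.8% lower, against 15.1% of all genes), 4 higher and 2 lower in dorsal skin than in chin, and 7 higher and 4 lower in dorsal than in ventral skin. The dorsal shares against chin were 21.1% higher and 10.5% lower, beside 13.1% and 9.13% of all genes. Against ventral skin they were 36.8% and 21.1%, beside 20.9% and 15.2%. Without chin replicate 1, 4 of the immediate early genes were higher in ventral skin than in chin, and without ventral replicate 2, 2 were lower in dorsal than in ventral skin. Fos was at 22.8 and 23.2 FPKM in chin, 17.8 and 17.1 in ventral skin and 73.7, 76.6 and 68.7 in dorsal skin, higher in dorsal skin by 1.62 ± 0.14 than in chin (limma, adjusted p = 1.16e-09). Fosb and Nr4a1, of the same class, were lowest in ventral skin, at 0.50 and 0.27 FPKM and at 3.32 and 2.77 FPKM, against 2.27 to 4.22 FPKM and 7.54 to 13.7 FPKM in the other 5 libraries.

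Smooth muscle and arrector pili genes were lowest in chin, with 6 of 11 higher and 1 lower in ventral skin and 7 higher (4 without chin replicate 2) and 0 lower in dorsal skin. As shares, 54.5% were higher and 9.09% lower in ventral skin than in chin, against 13.2% and 15.1% of all genes. In dorsal skin 63.6% were higher than in chin, against 13.1%. Myh11, the smooth muscle myosin, was at 0.93 and 1.12 FPKM in chin, 3.36 and 2.52 in ventral skin and 2.51, 2.26 and 2.34 in dorsal skin. Tagln, an actin-binding protein of smooth muscle, was instead lowest in ventral skin, at 8.10 and 8.57 FPKM against 11.5 and 14.9 in chin and 21.8, 20.3 and 19.8 in dorsal skin. Of 26 chemokines, 0 were higher and 9 lower (5 without dorsal replicate 3) in dorsal skin than in chin. Against ventral skin 0 were higher and 12 lower. The lower members were 34.6% and 46.2% of the list, against 9.13% and 15.2% of all genes. Ccl11, which attracts eosinophils, was at 12.0 and 7.22, 12.2 and 8.56, and 3.06, 2.65 and 3.36 FPKM, and Ccl21a, which guides cells into lymph vessels, at 57.0 and 29.8, 185 and 170, and 52.7, 56.1 and 59.8 FPKM. From ventral to dorsal skin 49% of the mitochondrial respiratory chain genes were higher and 4.9% lower, against 20.9% and 15.2% of all genes. Of 102 mitochondrial respiratory chain genes, 50 were higher (30 without ventral replicate 2) and 5 lower (2 without ventral replicate 1) in dorsal than in ventral skin (median 0.27).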
